A study of Mus musculus with 4 samples.

Results

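Histones, high mobility group (HMG) proteins, Cbx chromodomain proteins and histone chaperones were examined in Il10-eGFP+ and Il10-eGFP− CD4+ T cells. Genes were chosen by symbol alone, and 75 of the 9546 genes in the deposited rlog table fitted the rule. They comprised 39 canonical histones, 6 variant histones, 8 HMG proteins, 8 Cbx proteins, 13 histone chaperones and 1 pseudogene, Hmgb1-ps8. The choice used names, with earlier results of these data known. The rlog table holds only genes that reached 10 counts over the 4 libraries. A gene with few counts could thus enter through 1 group alone.

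All cells came from spleens of Tg4 Nr4a3-Tocky IL-10 GFP mice, whose CD4+ T cells have a transgenic receptor that recognises MBP, a myelin protein. Nr4a3 drives a fluorescent Timer that marks recent receptor signalling, and eGFP reports Il10. Every mouse received 4 mg/kg of the [4Y] MBP peptide 24 h earlier, and CD4+ Nr4a3-Timer+ cells were sorted by eGFP into 2 Il10-eGFP+ and 2 Il10-eGFP− libraries. No unimmunised library is in the comparison, the ages of the mice are not given in the sources used here, and the study's methods state that another replicate pair was removed as an outlier.

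Chromatin wraps DNA around octamers of the core histones H2A, H2B, H3 and H4, and linker histone H1 binds where DNA enters and leaves. Canonical histones are encoded by clustered genes that are transcribed mainly during DNA synthesis, and their mRNAs typically end in a stem-loop in place of a poly(A) tail. Variant histones such as H2A.Z and H3.3 come from separate genes with polyadenylated mRNAs and are made throughout the cell cycle. Chaperones carry histones to and from DNA, while HMG and Cbx proteins bind nucleosomes, DNA or modified histone tails.

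The libraries held 644679 to 730330 counts, of which the 75 genes took 0.936 to 1.08%. A 3′ method gives counts per transcript end, so levels were scaled to library size with TMM factors (CPM) and not by length. The CD4 T cell markers summed to 3999 and 3738 CPM in the Il10-eGFP− against 4646 and 4309 in the Il10-eGFP+ libraries. B cell or plasma cell markers summed to 107.2 and 148.8 CPM against 419.9 and 494.8, with 4 of 6 tested genes higher, namely Cd22, Ighm, Igkc and Jchain, while Cd79a had 2, 0, 0 and 0 counts. Myeloid markers summed to 71.94 and 106.5 CPM against 339.1 and 138.5, with Lyz2 and S100a8 of 8 tested genes higher and Adgre1 and Clec4f at 0. Of the CD8 T or NK cell markers, 1 of 4 tested genes, Gzma, was higher, at summed levels of 47.51 and 77.33 CPM against 74.47 and 79.35, and Ncr1 was at 0. Erythroid markers summed to 160.2 and 140.1 CPM against 272.5 and 206.3, with 0 of 4 tested genes called by edgeR, 2 at an unadjusted p under 0.05 (Hbb-bs and Hbb-bt). The part of these other cells in the results was not tested.

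Il10-eGFP+ cells held more transcript of 9 of the 75 genes, and 0 were lower. These were the linker histones H1f3, H1f4 and H1f5, the H2A genes H2ac4, H2ac11, H2ac15 and H2ac22, and the nucleosome-binding HMG proteins Hmgb2 and Hmgn5. Genes were called where edgeR's quasi-likelihood p, adjusted by Benjamini-Hochberg over the 9608 genes tested, was under 0.05. The 9 genes were 12% of the 75, beside 2.35% of all genes called higher, 1.74% called lower and 4.09% called either way. An unadjusted p under 0.05 in edgeR was reached by 20 of the 75 genes. The share of all genes that reached it was not taken, so this count and those by class below have no background beside them. DESeq2 called 2 of the 75, H1f4 and Hmgb2, and gave no adjusted p for 43. The count was 4 without the first Il10-eGFP− library, 4 without the first Il10-eGFP+ library, 5 without the second Il10-eGFP+ library and 8 without the second Il10-eGFP− library. The p-values measure the spread between 2 samples a group, and in sorted populations fewer cells expressing a gene cannot be told apart from less RNA per cell.

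**Figure D1:**
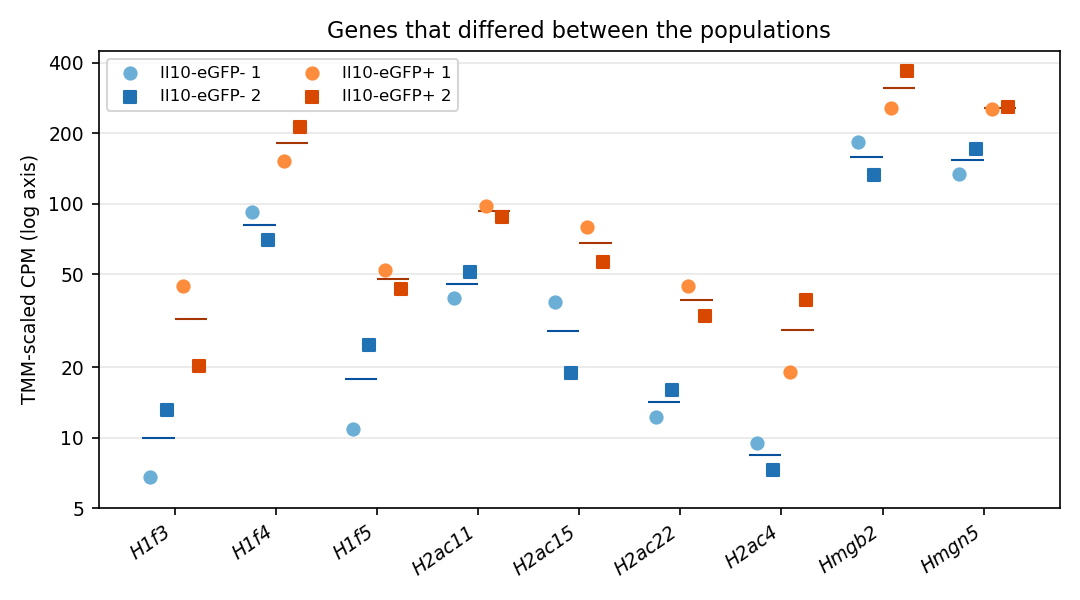
TMM-scaled CPM (log axis) of the 9 genes that differed, with 1 point per library and a line at each group mean (n = 2). The Il10-eGFP+ points of each gene are above its Il10-eGFP− points.

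The summed level of the canonical histones was higher in both Il10-eGFP+ libraries than in either Il10-eGFP− library. The 39 genes summed to 575.5 and 580.7 CPM in the Il10-eGFP− against 1100 and 1013 CPM in the Il10-eGFP+ libraries, a 1.83-fold ratio of the means. Of the 39, 7 were called higher (17.9%) and 0 lower. The log2 fold change was above 0 in 31 of 39 genes, with a median of 0.70, beside a median of 0 and 50% above 0 over all genes tested. Both Il10-eGFP+ libraries exceeded both Il10-eGFP− libraries in 19 of 39 genes and lay below both in 0, where 22.3% of all genes lay above and 22.3% below. The class median was 0.29 without the first Il10-eGFP+ library and 0.90 without the second. Summed over the 32 canonical genes that were not called, the ratio was 1.52.

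Counts of single canonical genes were low. In 21 of the 39 the mean was under 10 counts per library, and edgeR called 0 of these 21, with 0 at an unadjusted p under 0.05. Their fold changes are not given singly. The mean takes in the Il10-eGFP+ libraries, so genes that were high there could pass 10 counts through them, and the genes above and below that mean are not compared.

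Linker histones were called in 3 of 4 genes. H1f4 (H1.4, chr13:23620629-23622558) had 68 and 48 counts in Il10-eGFP− cells against 96 and 147 in Il10-eGFP+ cells, the order used throughout. The groups did not overlap, at 81.2 ± 15.7 and 182.1 ± 42.4 CPM (SD, n = 2), and the log2 fold change was 1.16 (SE 0.21, edgeR adjusted p = 0.00023). It was called without any 1 of the 4 libraries. H1f5 (H1.5, chr13:21779883-21780625) had 8 and 17 counts against 33 and 30, a log2 fold change of 1.42 (SE 0.40, edgeR adjusted p = 0.0271), and was called only without the second Il10-eGFP− library among the 4 omissions. Its log2 fold change was 0.94 without the first Il10-eGFP− library and 2.12 without the second.

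H1f3 (H1.3, chr13:23553262-23560686) had 5 and 9 counts against 28 and 14, with a log2 fold change of 1.68 (SE 0.51, edgeR adjusted p = 0.0475). With all 4 libraries, limma-voom did not call it (adjusted p = 0.0725). The first Il10-eGFP+ library held the most counts, and the gene was not called without it, at a log2 fold change of 1.02, or without the first Il10-eGFP− library, at 1.27. H1f2 (H1.2), the fourth linker gene, had 8 and 7 counts against 15 and 13. Its groups did not overlap either, but its log2 fold change of 0.99 missed the threshold (SE 0.54, edgeR adjusted p = 0.391). The 4 linker genes together had 119.5 ± 1.85 CPM in Il10-eGFP− cells and 283.4 ± 15.4 CPM in Il10-eGFP+ cells (SD, n = 2), a ratio of 2.37.

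Of the core histones, H2A had 4 of 12 genes called by edgeR and the other types 0, with H4c2 called in some alternative fits, limma-voom among them. H2ac11 (chr13:22042460-22042944) had 29 and 35 counts against 62 and 61. Its log2 fold change was 1.04 (SE 0.27, edgeR adjusted p = 0.0144), and the libraries of each group lay close together. It was not called without the first library of either group. H2ac15 (chr13:21753435-21753827) had 28 and 13 counts against 50 and 39, with a log2 fold change of 1.23 (SE 0.33, edgeR adjusted p = 0.0218), and was not called without the second Il10-eGFP− or the first Il10-eGFP+ library. Without the first Il10-eGFP− library its log2 fold change was 1.82.

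H2ac22 (chr13:21786826-21787218) had 9 and 11 counts against 28 and 23, with a log2 fold change of 1.44 (SE 0.44, edgeR adjusted p = 0.0435). It was called in none of the 4 fits that left out a library. H2ac4 (chr13:23751126-23751598) had 7 and 5 counts against 12 and 27, with a log2 fold change of 1.77 (SE 0.53, edgeR adjusted p = 0.0427), and was called only without the first Il10-eGFP+ library among those 4 fits. Its second Il10-eGFP+ library held the most counts, and without it the log2 fold change was 1.16. With all 4 libraries, limma-voom did not call H2ac4 (adjusted p = 0.0789).

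Among the H2A genes not called, H2ac13 had 10 and 12 counts against 21 and 30 (log2 fold change 1.30, edgeR adjusted p = 0.0718). H2ac8, the H2A gene with the highest mean level, had 35 and 48 counts against 59 and 67 (log2 fold change 0.70, edgeR adjusted p = 0.117). Both were without overlap between groups, and H2ac13 was called when at least 10 counts were required in each library (edgeR adjusted p = 0.0108). H2ac20 had 15 and 4 counts against 17 and 14, and its groups overlapped. The remaining H2A genes H2ac6, H2ac7, H2ac10, H2ac12 and H2ac25 had at most 10 counts in any library. All 12 H2A genes summed to 213.3 ± 7.91 CPM in Il10-eGFP− cells and 415.4 ± 26.5 CPM in Il10-eGFP+ cells (SD, n = 2), a ratio of 1.95.

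H4 genes had 0 of 7 called by edgeR, with 3 at an unadjusted p under 0.05, and their summed level was 96.37 and 97.76 CPM against 196.5 and 135.6. DESeq2 called none either, but it gave no adjusted p for H4c2 and H4c9, so it could not call them. H4c4 had 32 and 23 counts against 54 and 38 (log2 fold change 0.85, edgeR adjusted p = 0.107). H4c9 had 15 and 11 counts against 25 and 20 (log2 fold change 0.89, edgeR adjusted p = 0.287). H4c2 had 2 and 18 counts against 26 and 23, so the Il10-eGFP− libraries differed more from each other than the second did from either Il10-eGFP+ library (log2 fold change 1.38, edgeR adjusted p = 0.102). It was called without the second Il10-eGFP− library. H4c3 had 15 and 4 counts against 5 and 6, and H4c6, H4c14 and H4c18 had at most 8 in any library.

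H2B and H3 had the smallest ratios of the summed levels, at 1.38 and 1.2, with 0 of 9 and 0 of 7 genes called by edgeR. In edgeR 0 had an unadjusted p under 0.05. DESeq2 called none either, but it gave no adjusted p for H2bc11, H2bc12, H3c1 and H3c3, so it could not call them. The 9 H2B genes summed to 70.58 and 74.41 CPM against 99.82 and 101, which did not overlap. H2bc12 had 15 and 11 counts against 19 and 21, and H2bc11 had 15 and 17 against 14 and 22. H2bc3, H2bc4, H2bc6, H2bc7, H2bc8, H2bc15 and H2bc18 had at most 8 counts in any library. Among the H3 genes, H3c3 had 26 and 23 counts against 20 and 29, and H3c1 had 20 and 11 against 19 and 20. H3c2, H3c6, H3c10, H3c11 and H3c13 had at most 9 counts in any library. Whether the histone types differed from each other in their change was not tested.

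**Figure D2:**
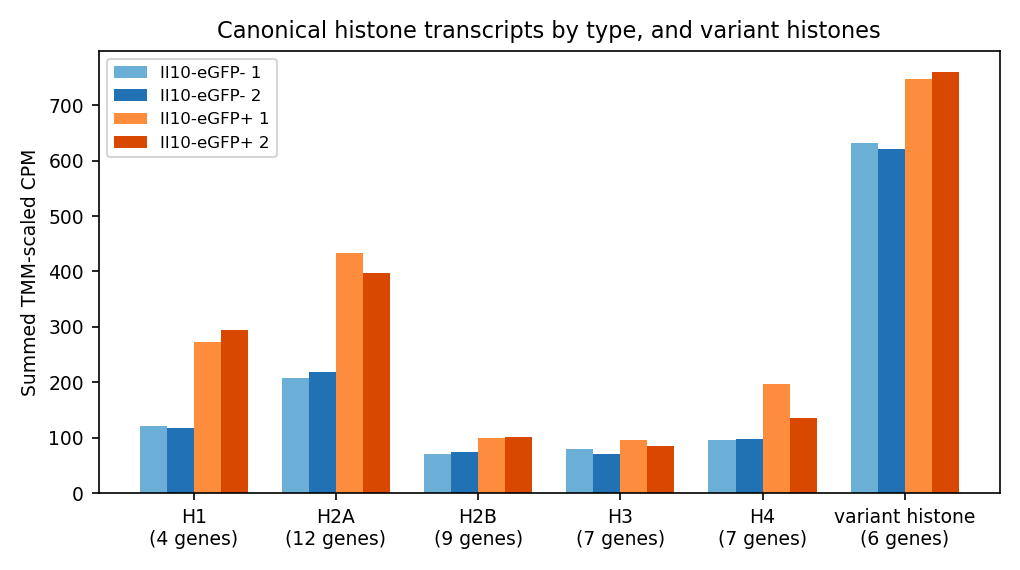
Summed TMM-scaled CPM of canonical histone genes by type and of the 6 variant histone genes, with 1 bar per library. H1 and H2A show the largest ratios of Il10-eGFP+ to Il10-eGFP− means, 2.37 and 1.95, and the variant histones a ratio of 1.2.

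The libraries were primed from poly(A), so the 3′ ends of the annotated transcripts were searched for the stem-loop and for a polyadenylation signal (GENCODE M21, GRCm38). A stem of 6 paired bases with a loop of 4 lay after the stop codon in 27 of the 39 canonical genes. The annotated transcript stopped at the stop codon in 8, among them the called genes H1f5, H2ac15 and H2ac22. The commonest of the 6 stem-loop sequences occurred in 15 genes, including the other 4 called canonical genes. These 4 are shown first, followed by 3 genes that were not called and carry other stems or loops, with the stem-loop in capitals and each sequence 5′ to 3′ on the strand of the gene. A signal AATAAA or ATTAAA lay within the last 50 bases in 6 genes, none of them among the 7 called by edgeR. The part of the mRNA without a poly(A) tail was not measured.
H1f4, chr13:23621777-23621802, minus strand: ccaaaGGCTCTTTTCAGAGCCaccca
H1f3, chr13:23555782-23555807, plus strand: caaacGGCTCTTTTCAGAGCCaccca
H2ac4, chr13:23751567-23751592, plus strand: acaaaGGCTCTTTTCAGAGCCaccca
H2ac11, chr13:22042478-22042503, minus strand: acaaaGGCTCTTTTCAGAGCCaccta
H2bc12, chr13:22036295-22036320, plus strand: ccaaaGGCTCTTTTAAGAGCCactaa
H4c4, chr13:23581945-23581970, plus strand: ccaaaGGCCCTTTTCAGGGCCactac
H4c2, chr13:23757361-23757386, plus strand: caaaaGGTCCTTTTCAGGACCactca

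Histone genes are near copies of each other, which limits how reads can be given to 1 gene. In the last 300 annotated bases, 70.1% of the stretches of 50 bases of H2ac11 also occurred in another gene. The share was 70.1% for H2ac4, 46.2% for H2ac15 and 80.5% for H2ac22, so values of single H2A genes are uncertain. The annotated end of H1f4 lay wholly within H2bc6, a histone H2B gene on the same strand with 2, 2, 4 and 2 counts. All of the stretches of H1f4 were shared, so its values are uncertain as well. H1f3 and H1f5 shared 0%. Hmgb2 shared 38.1%, mainly with Gm4739, and Hmgn5 0%.

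Promoters of canonical histones were compared with all 32851 windows of RefSeq (GRCm38.p6), each running from 250 bases before to 50 after a start. Windows were found for 65 of the 75 genes. The CCAAT box (CCAAT or ATTGG) lay in 7 of 7 called canonical genes and in 88.9% of the 36 canonical windows, against 37.4% of all windows. The TATA box (TATAAA or TTTATA) lay in 6 of 7, in 63.9% of the canonical windows and in 13.6% of all. The cell cycle homology element (TTTGAA or TTCAAA) lay in 5 of 7, in 47.2% and in 17.9%, and TTTAAA in 4 of 7, in 41.7% and in 13.2%. The H1 box (AAACACA or TGTGTTT), an element of linker histone promoters, lay in all 4 H1 windows and in 7.2% of all windows. Matches to the TATA box on opposite strands can overlap each other. A match is a run of letters and not a measured site. The windows of H1f4 and H1f5, with an H1 box, and of Hmgb2, with none, are shown with all matches in capitals, on the strand of the gene.
H1f4, chr13:23622509-23622808, minus strand: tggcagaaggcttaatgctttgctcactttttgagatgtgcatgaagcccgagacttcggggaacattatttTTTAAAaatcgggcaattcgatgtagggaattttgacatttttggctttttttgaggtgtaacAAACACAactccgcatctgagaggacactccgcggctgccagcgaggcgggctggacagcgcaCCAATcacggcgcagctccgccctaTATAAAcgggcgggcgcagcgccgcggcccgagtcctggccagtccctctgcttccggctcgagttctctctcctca
H1f5, chr13:21780576-21780875, minus strand: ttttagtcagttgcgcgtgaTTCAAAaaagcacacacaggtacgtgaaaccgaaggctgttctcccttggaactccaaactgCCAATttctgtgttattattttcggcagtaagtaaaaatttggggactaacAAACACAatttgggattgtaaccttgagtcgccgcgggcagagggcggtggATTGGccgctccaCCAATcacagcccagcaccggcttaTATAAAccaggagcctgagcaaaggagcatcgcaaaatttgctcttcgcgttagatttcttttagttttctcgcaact
Hmgb2, chr8:57511593-57511892, plus strand: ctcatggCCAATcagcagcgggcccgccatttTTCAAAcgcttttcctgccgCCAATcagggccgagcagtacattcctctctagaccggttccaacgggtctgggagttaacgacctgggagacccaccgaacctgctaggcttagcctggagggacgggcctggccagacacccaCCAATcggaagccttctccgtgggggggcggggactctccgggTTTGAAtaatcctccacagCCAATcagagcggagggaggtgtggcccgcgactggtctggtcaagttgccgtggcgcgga

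Variant histones had 0 of 6 genes called by edgeR, with 1 at an unadjusted p under 0.05 (H2az2) and 0 called by DESeq2. Their summed level was 632.5 and 621.6 CPM in the Il10-eGFP− against 747.9 and 760.3 in the Il10-eGFP+ libraries, a ratio of 1.2. The median log2 fold change was 0.37, with 5 of 6 above 0, beside 50% of all genes. Both Il10-eGFP+ libraries were above both Il10-eGFP− libraries in 4 of 6, beside 22.3% of all genes. The difference between canonical and variant genes was not tested.

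H2az2 and H2az1 encode the forms of H2A.Z, a variant found around transcription start sites. H2az2 had 63 and 32 counts against 63 and 72 (log2 fold change 0.61, SE 0.25, edgeR adjusted p = 0.194), so the second Il10-eGFP− library stood low. It was called without the first Il10-eGFP− library. H2az1 had 36 and 42 counts against 44 and 54 (log2 fold change 0.43, SE 0.27, edgeR adjusted p = 0.493). H2az2 made up 63.6 and 43.2% of the pair's counts in the Il10-eGFP− against 58.9 and 57.1% in the Il10-eGFP+ libraries, and the Il10-eGFP+ shares lay between the other 2.

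H2ax, the variant phosphorylated beside DNA breaks, had 90 and 60 counts against 88 and 86 (log2 fold change 0.32, SE 0.21, edgeR adjusted p = 0.514). H3f3b and H3f3a encode the same H3.3 protein. H3f3b had 262 and 273 counts against 259 and 295 (log2 fold change 0.15, SE 0.15, edgeR adjusted p = 0.706), and H3f3a had 14 and 16 against 8 and 17. H3f3b gave 94.5 to 97.0% of the pair's counts in every library. H1f0, the linker variant of non-dividing cells, had 1 and 3 counts against 10 and 3. Of 2 further variant genes that fitted the rule by an older name only, H2afy (macroH2A1) had 399 and 335 counts against 356 and 395 (log2 fold change 0.14, edgeR adjusted p = 0.719), and H2afj had 78 and 76 against 52 and 51 (log2 fold change −0.48, edgeR adjusted p = 0.304).

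HMG proteins were called in 2 of 8 genes, 1 each from the HMGB and HMGN families. Hmgb2, a DNA-bending protein abundant in dividing cells (chr8:57511907-57515999), had 135 and 91 counts against 162 and 256. The groups did not overlap, at 158 ± 35.7 and 313 ± 79.6 CPM (SD, n = 2), and the log2 fold change was 0.99 (SE 0.18, edgeR adjusted p = 0.00023). It was not called without the second Il10-eGFP+ library. Its paralogue Hmgb1 had 54 and 50 counts against 60 and 76 (log2 fold change 0.49, SE 0.24, edgeR adjusted p = 0.305). Hmgb2 gave 71.4 and 64.5% of the pair's counts in the Il10-eGFP− against 73.0 and 77.1% in the Il10-eGFP+ libraries. The exact 95% interval of the first, 64.4 to 77.8%, took in both Il10-eGFP+ shares, and that of the second, 56 to 72.4%, took in neither. Such intervals cover counting error only.

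Hmgn5, a nucleosome-binding protein that counters linker histone compaction (chrX:109004534-109013404), had 99 and 118 counts against 161 and 179. The Il10-eGFP+ libraries agreed closely, at 255.1 and 258.2 CPM, and the log2 fold change was 0.75 (SE 0.18, edgeR adjusted p = 0.00579). It was not called without the first Il10-eGFP− library. Hmgn1, the most abundant HMG gene, had 403 and 437 counts against 350 and 409 (log2 fold change −0.05, SE 0.14, edgeR adjusted p = 0.938), and its groups overlapped. Hmgb3 had 12 and 23 counts against 19 and 30 (log2 fold change 0.57, edgeR adjusted p = 0.545), Hmgn2 27 and 32 against 32 and 34, Hmgn3 6 and 6 against 1 and 2, and Hmga1 4 and 1 against 2 and 3. Hmgb1-ps8, a processed pseudogene, had 4 and 1 counts against 7 and 6.

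**Figure D3:**
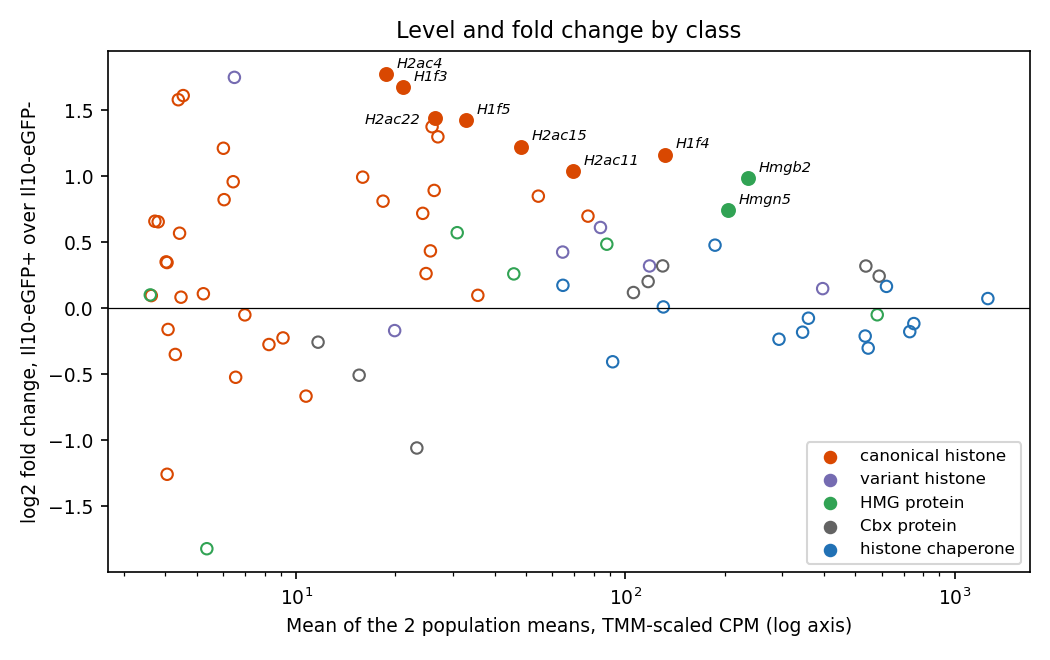
Mean level (TMM-scaled CPM, log axis) against log2 fold change for the genes of the 5 classes (the pseudogene is left out), with filled points for the 9 called genes. Most chaperones lie at higher levels than the canonical histones, and the largest chaperone changes are 0.48 and −0.40. Genes with a mean under 10 counts per library are plotted too, and their fold changes are uncertain.

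Cbx proteins had 0 of 8 genes called by edgeR, with 2 at an unadjusted p under 0.05. DESeq2 called none either, but it gave no adjusted p for Cbx2 and Cbx7, so it could not call them. The HP1 proteins Cbx1, Cbx3 and Cbx5 bind methylated H3 lysine 9 in heterochromatin. Cbx5 had 349 and 331 counts against 356 and 437, without overlap in CPM (log2 fold change 0.32, SE 0.14, edgeR adjusted p = 0.218). Cbx1 had 338 and 427 counts against 384 and 465 (log2 fold change 0.24, edgeR adjusted p = 0.428), and Cbx3 had 60 and 94 against 76 and 90. Both overlapped between groups in CPM, and Cbx5 gave 77.9 to 85.3% of the counts of Cbx3 and Cbx5.

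The Polycomb members of the family bind methylated H3 lysine 27 as part of a repressive complex. Cbx2 had 27 and 18 counts against 8 and 12, without overlap (log2 fold change −1.06, SE 0.45, edgeR adjusted p = 0.222). Cbx6, at 85 and 79 counts against 91 and 100, was the other way round (log2 fold change 0.32, SE 0.20, edgeR adjusted p = 0.477). Cbx7 had 14 and 12 counts against 7 and 10 (log2 fold change −0.51, SE 0.54, edgeR adjusted p = 0.746), and Cbx8 had 9 and 9 against 7 and 7. Cbx2 and Cbx7 were in the lower part of the range of levels, and their standard errors were wide.

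Histone chaperones had 0 of 13 genes called by edgeR and by DESeq2, with 2 at an unadjusted p under 0.05. Their summed level was 5762 and 6348 CPM in the Il10-eGFP− against 5622 and 5951 in the Il10-eGFP+ libraries, which overlapped. The median log2 fold change was −0.11, with 5 of 13 above 0. In 7 genes both Il10-eGFP+ libraries lay below both Il10-eGFP− libraries, and in 1, Asf1b, above, where 22.3% of all genes fell in each arrangement. Asf1b, which hands H3 and H4 to the replication machinery, had 95 and 126 counts against 154 and 133 (log2 fold change 0.48, SE 0.19, edgeR adjusted p = 0.151) and was called without the second Il10-eGFP− library. Its paralogue Asf1a had 94 and 90 against 100 and 72 (log2 fold change 0.01, SE 0.21, edgeR adjusted p = 0.987).

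Anp32e, which removes H2A.Z from chromatin, had 447 and 411 counts against 320 and 328 (log2 fold change −0.30, SE 0.14, edgeR adjusted p = 0.259). Its share of the counts of Anp32b and Anp32e was 35.9 and 30.3% against 31 and 24.4%, which overlapped. Anp32b, the most abundant chaperone, had 798 and 945 counts against 711 and 1014 (log2 fold change 0.07, SE 0.13, edgeR adjusted p = 0.872). Anp32a had 218 and 231 against 174 and 182 (log2 fold change −0.23, SE 0.16, edgeR adjusted p = 0.524), and Anp32b gave 78.5 and 80.4% of that pair against 80.3 and 84.8%.

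The large subunit of chromatin assembly factor 1, Chaf1a, had 76 and 72 counts against 53 and 51 (log2 fold change −0.40, SE 0.23, edgeR adjusted p = 0.426). Chaf1b, the middle subunit, had 36 and 50 against 36 and 55, and its share of the pair was 32.1 and 41.0% against 40.4 and 51.9%, with wide exact intervals. The FACT subunits, which open nucleosomes for polymerases, were near 0: Ssrp1 had 405 and 426 counts against 379 and 494 (log2 fold change 0.17, edgeR adjusted p = 0.628) and Supt16 287 and 236 against 193 and 237 (log2 fold change −0.18, edgeR adjusted p = 0.639). Supt16 gave 41.5 and 35.6% of the pair's counts against 33.7 and 32.4%, which did not overlap, although the exact 95% intervals of 35.6 and 33.7% did.

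Nasp, which holds a reserve of H3 and H4, had 400 and 415 counts against 306 and 352 (log2 fold change −0.21, SE 0.14, edgeR adjusted p = 0.511). Nap1l1, a chaperone of H2A and H2B, had 553 and 549 against 424 and 486 (log2 fold change −0.18, SE 0.13, edgeR adjusted p = 0.578), and Nap1l4 246 and 277 against 233 and 230. Set, which also inhibits histone acetylation, had 590 and 523 against 465 and 491 (log2 fold change −0.11, SE 0.13, edgeR adjusted p = 0.762). Nap1l4 gave 30.8 to 35.5% of its pair with Nap1l1 in every library.

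**Figure D4:**
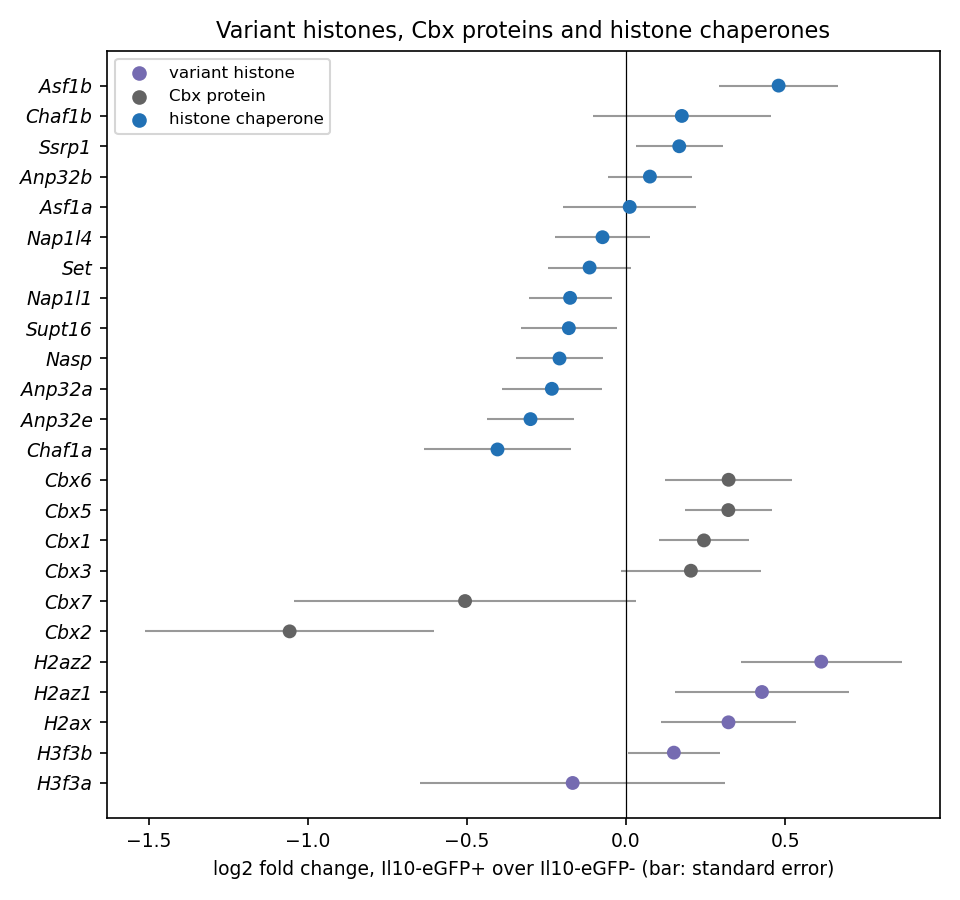
log2 fold change of variant histones, Cbx proteins and histone chaperones that are named in the text and had a mean of at least 10 counts per library, each with its standard error (2 libraries a group). Asf1b lies highest and Chaf1a lowest among the chaperones, at 0.48 and −0.40, and none of the genes plotted was called by edgeR.

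Genes that act with histones were read from lists chosen for their known roles. None of the 7 genes for histone mRNA processing and transcription was called by edgeR, with 0 at an unadjusted p under 0.05. Their median log2 fold change was −0.01, and they summed to 464.2 and 557.4 CPM against 557.8 and 519.4. Of 29 tested genes for histone import, deposition and exchange, 2 were higher and 1 lower, with a median of 0.05. Over all genes, 2.35% were called higher and 1.74% lower. Cenpa, the centromeric H3 variant, had 13 and 28 counts against 55 and 60 (log2 fold change 1.58, SE 0.32, edgeR adjusted p = 0.000679). Dnajc9, a heat shock co-chaperone that binds H3 and H4, had 180 and 158 against 228 and 236 (log2 fold change 0.56, SE 0.16, edgeR adjusted p = 0.0247). Npm1, a nucleolar chaperone, had 2586 and 2765 counts against 1719 and 1985 (log2 fold change −0.43, SE 0.11, edgeR adjusted p = 0.0163).

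Most markers of G2 and M phase were called higher and most markers of S phase were not called, where 2.35% of all genes were called higher. Of 18 genes of G2 and M phase, 13 were higher (median log2 fold change over the 18 of 1.21), at summed levels of 3136 and 2975 CPM against 6281 and 5996. Mki67, a marker of proliferating cells, had 119 and 85 counts against 289 and 290 (log2 fold change 1.61, SE 0.17, edgeR adjusted p = 1.04e-09). The next 5 by p, Nusap1, Plk1, Top2a, Birc5 and Cenpf, had log2 fold changes of 0.88 to 1.64. Of 18 genes of S phase, 2 were higher, with a median of 0.14 and sums of 5400 and 5741 CPM against 5595 and 5781, which overlapped. These were Ccne1, a cyclin of the G1 to S transition, and Rrm2, a subunit of ribonucleotide reductase. Ccne1 had 35 and 39 counts against 71 and 83 (log2 fold change 1.15, SE 0.25, edgeR adjusted p = 0.00192), and Rrm2 had 137 and 135 against 196 and 261 (log2 fold change 0.85, SE 0.16, edgeR adjusted p = 0.000466). Mcm2 and Ung, of DNA replication and repair and named after their values were seen, had values the other way without overlap, with log2 fold changes of −0.47 and −0.48 (edgeR adjusted p = 0.0695 and 0.13). Tyms and Rrm1, also named after their values were seen, were higher without overlap and not called. Their log2 fold changes were 0.63 and 0.50 (edgeR adjusted p = 0.075 and 0.15). In all, 11 of the 18 genes of S phase had a log2 fold change above 0. The part of the cell cycle in the histone levels was not tested.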

How the data were processed

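Messenger RNA of 2 Il10-eGFP+ and 2 Il10-eGFP− libraries was measured with QuantSeq 3′ FWD. The authors deposited raw counts per Ensembl gene and rlog values on a log2 scale made with DESeq2. The submitters' processing notes name FastQC, STAR 2.5.2a, HTSeq 0.6.0 and GRCm38. Molecular identifiers were used, but whether the counts were collapsed by them, the strand option and the annotation release are not given in the sources used here. Extraction is given as PureLink in the labels and Picopure in the methods.

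Symbols of the rlog table were joined to the count table by GENCODE M21 symbol (33 genes), RefSeq synonym (41) or rlog values alone (1). Recomputed rlog values were equal to 9 decimals in all 75. Of 139 genes of the count table whose older or current symbol fitted the rule, 62 had under 10 counts in all. edgeR 4.0.16 (TMM, glmQLFit, glmQLFTest) in R 4.3.3 was run on all genes that reached 10 counts in total, with Benjamini-Hochberg adjustment and a threshold of 0.05. DESeq2 1.42.0 and limma 3.58.1 were alternatives. Scripts were tested on simulated data. Fold changes are printed where the mean count was 10 or more. Depth was 644679 to 730330 counts a library.

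The genes and lists were chosen with earlier results of these data known. Named were all called genes, all canonical and variant histones, members of paralogue pairs, the 3 most abundant and 3 most changed genes of each other class, and up to 6 called genes of each partner and cell cycle list. The single values of 2 genes are not reported here. The search of the whole stretch after the stop codon and the H1 box were added after seeing the data.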

Additional observations from a re-analysis of the deposited data

How the results depend on the processing

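Each group had 2 libraries of at most 730330 counts, which limits the precision of genes with few counts. The 393 genes called over the whole table became 115 with DESeq2's Wald test and 201 to 264 when 1 library was left out. The number of called chromatin genes went from 9 to 2 with the Wald test and to 4 to 8 with 1 library left out. Not all of the genes called with 1 library left out were among the 9. H2az2 was added without the first Il10-eGFP− library, and H4c2 and Asf1b without the second. With library size alone 6 chromatin genes were called, with at least 10 counts in each library 6 of 39 tested, with limma-voom 8, with bias-adjusted deviances 8, and 9 with DESeq2 size factors, with limma on the rlog values, without a filter and without the 3 most counted genes. Deviations of libraries with the same replicate number correlated at 0.035 over 4965 genes, and the methods mention a replicate pair without saying that its libraries shared mice, so the numbers were not shown to pair the libraries. With a replicate block edgeR called 560 genes and 10 chromatin genes (H4c2 added), and DESeq2 with the block, an alternative chosen after seeing the data, called 40 and 0, with adjusted p = 0.104 for H1f4 and 0.0749 for Hmgb2. The log2 fold change of Asf1a turned to −0.015 with library size only, −0.023 with limma-voom and −0.005 in DESeq2 with the block. None of the genes whose direction turned when 1 library was left out was called by edgeR. Their log2 fold changes ranged from −0.022 to 0.494 for H2bc11, −0.12 to 0.282 for H3c3, −0.131 to 0.622 for Cbx3, −0.09 to 0.489 for Chaf1b, −0.127 to 0.261 for Anp32b, −0.207 to 0.071 for Nap1l4, −0.314 to 0.292 for Asf1a, −0.155 to 0.068 for Hmgn1 and −0.729 to 0.216 for H3f3a. The cause of these changes was not tested. The median of the 39 canonical histones was 0.04 on the rlog scale, which shrinks genes with few counts, and between 0.67 and 0.74 in the other fits of all 4 libraries that tested all 39.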
